A study of Homo sapiens with 26 samples.

Results

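The TOM complex is the entry gate of mitochondria for proteins made in the cytosol, and the voltage-dependent anion channels (VDACs) are the porins that let ions and metabolites such as ATP cross the same outer mitochondrial membrane (OMM). TOMM40 forms the import channel, TOMM20 and TOMM70 are receptors for arriving precursors, TOMM22 is the central receptor that joins the channel subunits, and the small subunits TOMM5, TOMM6 and TOMM7 tune the assembly and stability of the complex. All are encoded in the nucleus, and they reach the membrane by different routes. TOMM40 and the VDACs are beta-barrels, TOMM20 and TOMM70 are held by a membrane anchor near the N terminus (signal-anchored), and TOMM5, TOMM6, TOMM7 and TOMM22 by one in the C-terminal part (here called tail-anchored), which leaves the ribosome late or only after translation ends.

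These 10 genes were chosen by name, 4 beta-barrels, 2 signal-anchored and 4 tail-anchored proteins, out of 60663 genes in RNA-seq and 58849 entries in ribosome profiling. Of the 10, 8 had a ribosome profiling entry of their own and 9 had counts in RNA-seq. TOMM6 had 0 counts in all 14 RNA-seq libraries, where it overlaps other genes, and TOMM5 and TOMM6 shared their ribosome profiling entries with overlapping genes.

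All samples were HEK293T cells, a human embryonic kidney line, with an Avi tag on endogenous RPL29, a large-subunit ribosomal protein, and with LOV-BirA, a biotin ligase that blue light switches on. Ribosome profiling used polyclonal lines with LOV-BirA at the ER (fused to Sec61β), at the OMM (fused to GFP and the OMP25 transmembrane domain, from the EF1α promoter) or free in the cytosol, and RNA-seq of intact transcripts used the OMM fusion. The ER fusion was expressed behind mCherry from the SFFV promoter, so the ER and OMM lines also differ in promoter and construct. Cycloheximide (CHX), which stops elongation and holds ribosomes on the mRNA, was given 2 min before biotin and 10 min of light, and each lysate gave a total input and a streptavidin pulldown. Ribosome profiling had 2 replicates per location. RNA-seq had 2 replicates each of cells with a negative control gRNA (WT), of an AKAP1 null line and of a LARP4 null line, and 1 replicate without CHX and with 1 min of light, whose labels name no gRNA. Each null genotype was 1 monoclonal line, so genotype and clone cannot be told apart, and that the null lines had CHX follows from the general protocol. AKAP1 is an OMM protein that binds RNA, and LARP4 is an RNA-binding protein that acts on poly(A) mRNA.

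Library totals ran from 1025114 to 19539527 estimated counts in coding sequences and from 38347615 to 100840544 counts in RNA-seq. AKAP1 mRNA stood at 32.2 and 20.3 CPM (counts scaled to the library total) in the AKAP1 null total inputs against 115 and 119 CPM in WT. LARP4 mRNA stood at 79.3 and 74.0 CPM in the LARP4 null total inputs against 225 and 231 CPM in WT. Both targeted mRNAs were thus lower in the line labelled null for them. NEFL, NEFM, LIN28B and VIM, which mark this line, lay between 25.4 and 692 CPM in all total inputs, whereas CD3E and HBG1 were at 0 and ALB and PTPRC were at most 0.156 CPM.

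The membrane anchors show what separates the classes, so the coding bases of the 10 middle residues of the most hydrophobic 19-residue window are given for the anchored proteins that were measured. Capitals mark codons with T as the middle base, which encode hydrophobic residues (GENCODE 44 canonical transcripts on GRCh38).
TOMM20: gccggtGTAtgcggggccCTTTTCATTggg
TOMM70: GTCggggcacccCTGCTGCTGggcgcgggt
TOMM5: TTTCTCATCtacGTGgccCTCCTGcgaGTC
TOMM7: gccATTcgctggggcTTTATCcctCTTGTG
TOMM22: ATTgggaccacttccTTTATGATCCTGGTT
The TOMM20 window spans residues 6 to 24 of 145 (whole gene at chr1:235109341-235128837, minus strand), and that of TOMM70 residues 41 to 59 of 608 (whole gene at chr3:100363431-100401089, minus strand). In TOMM5 (chr9:37582646-37592604, minus strand) 6 of 51 residues follow the window, in TOMM7 (chr7:22812628-22822849, minus strand) 19 of 55, and in TOMM22 (chr22:38681957-38685421, plus strand) 41 of 142. The VDACs are 67.5% to 72.1% identical to each other in protein sequence and 15.2% to 19.2% identical to TOMM40.

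Levels in the total inputs are given per length, so they do not rank the genes by counts. TOMM70, lowest per length in footprints, had 1467 counts in the OMM total input of replicate 1, against 461.5 for VDAC3. All 1827 coding positions of TOMM70 were countable, against 209 in VDAC3. Footprint density, in RPKM over the coding sequence, was highest for TOMM20, with a lowest value of 1090, a median of 1170 and a highest value of 1380 over 6 libraries. TOMM7 followed at a median of 501 RPKM (441 to 594) and VDAC1 at 374 to 583 RPKM, and these neighbours overlapped. The TOMM7 entry held 246 countable positions, more than the 168 coding nt of its canonical transcript, so its density depends on the length used. TOMM70 had the lowest median, 70.2 RPKM (53.8 to 93.2), and overlapped TOMM40 at 167 RPKM (63.1 to 202). On the mRNA scale, in FPKM computed from the counts and the gene lengths deposited with them, TOMM20 was highest at 214 (152 to 237). VDAC1 followed at 108 (99.3 to 119), and TOMM5 was lowest at 6.22 (5.08 to 6.55). Those lengths were 3438 nt for TOMM20, 1751 nt for TOMM7 and 3606 nt for TOMM5. The canonical TOMM7 transcript has 168 coding nt between untranslated stretches of 70 and 196 nt, and TOMM5 156 between 65 and 485. The order by FPKM therefore depends on the length used.

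**Figure D1:**
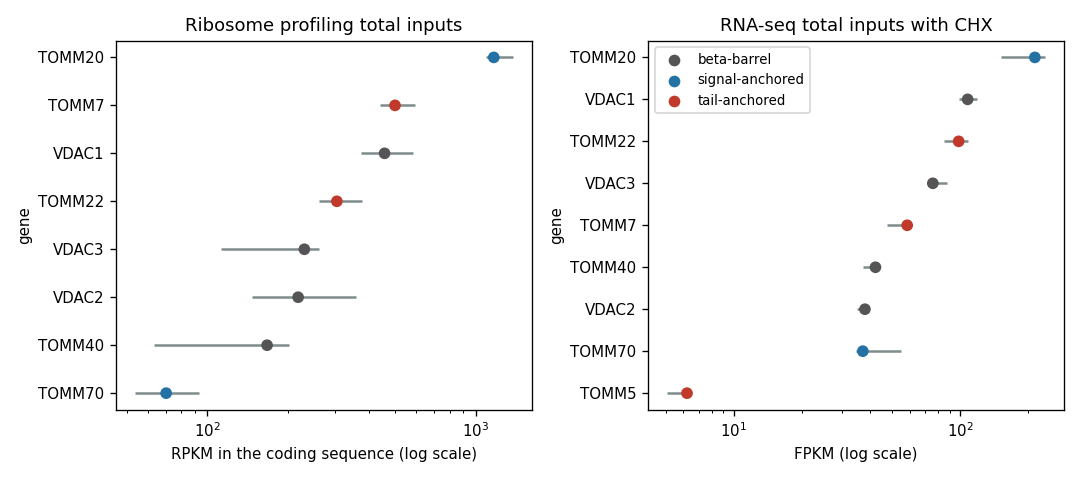
Levels of the genes in total input libraries on log axes, as RPKM in the coding sequence (left, 6 ribosome profiling libraries) and FPKM (right, 6 RNA-seq libraries with CHX); points are medians, lines run from the lowest to the highest library and colours mark the class. TOMM20 was highest on both scales, at medians of 1170 RPKM and 214 FPKM. FPKM used the gene lengths deposited with the counts, and its order depends on them.

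Footprint enrichment, the log2 ratio of pulldown to total input, shows whether ribosomes translating an mRNA were near LOV-BirA. At the OMM TOMM7 stood apart. Its density rose from 528 and 475 RPKM in the total inputs to 2210 and 2090 RPKM in the pulldowns, log2 enrichments of 2.07 and 2.14. The fitted value was 2.12 ± 0.09 (log2 ± SE, n = 2), a 4.36-fold enrichment (edgeR quasi-likelihood test, adjusted p = 7.4e-12). TOMM7 was the only one of the 8 genes called higher, against 17% of all 6742 genes tested, and TOMM70 the only one called lower, against 45.9%. Among 174 nuclear-encoded mitochondrial genes under 200 aa, 78.7% were called higher, at a median log2 of 0.94.

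TOMM70 stood at 73.5 and 72.2 RPKM in the OMM total inputs and at 49.2 and 47.4 RPKM in the pulldowns, with a fitted log2 of -0.58 ± 0.10 (edgeR adjusted p = 1.2e-04). The beta-barrels lay close to 0, with fitted log2 values of -0.01 ± 0.11 for TOMM40, -0.22 ± 0.12 for VDAC1, -0.21 ± 0.14 for VDAC2 and 0.01 ± 0.13 for VDAC3, none called. TOMM20 (0.17 ± 0.11) and TOMM22 (0.28 ± 0.12, edgeR adjusted p = 0.0575) were not called either. The median of all genes was -0.38. When TMM set the scale it was -0.06, calls were 51.4% higher in place of 27%, and TOMM40 (0.31), VDAC3 (0.33), TOMM20 (0.49) and TOMM22 (0.60) were called higher as well, while VDAC1 (0.10) and VDAC2 (0.11) lay above 0 without a call.

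**Figure D2:**
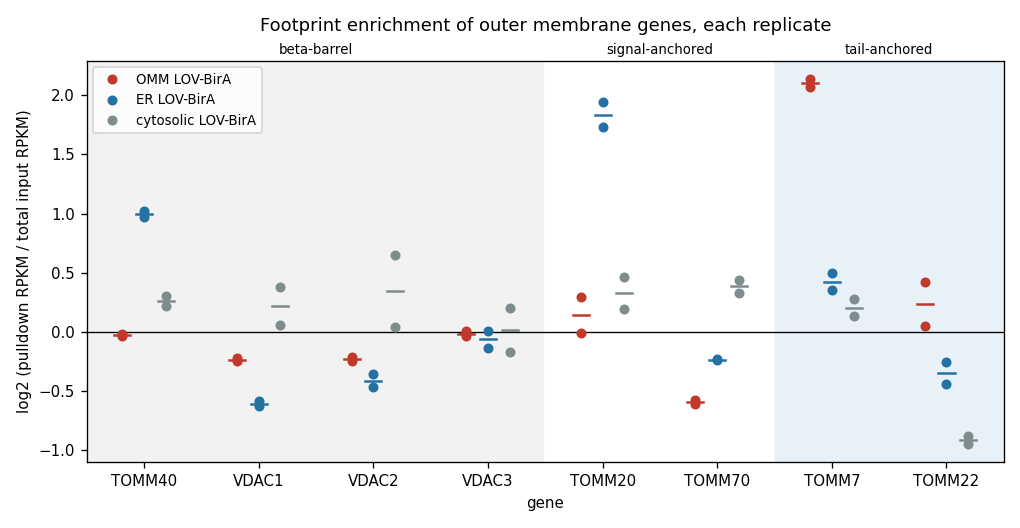
Footprint log2 enrichment (pulldown RPKM over total input RPKM) of 8 genes in each replicate at the OMM, at the ER and in the cytosol; points are replicates and short lines their means. TOMM7 lay at 2.07 and 2.14 at the OMM, and TOMM20 at 1.94 and 1.73 at the ER.

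At the ER the order changed, and the gene with the highest enrichment was TOMM20, a receptor of the mitochondrial surface. It rose from 1120 and 1170 RPKM in the total inputs to 4300 and 3860 RPKM in the pulldowns, log2 enrichments of 1.94 and 1.73. The fitted log2 was 1.55 ± 0.10 (edgeR adjusted p = 1.0e-10). TOMM40, the channel, rose too, from 166 and 158 to 335 and 309 RPKM, with a fitted log2 of 0.71 ± 0.10 (edgeR adjusted p = 2.4e-06). Ratios of RPKM at the ER lie 0.37 and 0.20 above ratios of coding-sequence counts in the 2 replicates, because the authors divided by reads on whole transcripts. Counted over all exons, the RPKM ratios remained at 1.78 and 1.51 for TOMM20 and at 0.94 and 0.88 for TOMM40.

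Of the 8 genes, 2 were called higher at the ER, against 19.9% of 7390 genes, and 5 lower, against 72%. VDAC1 had a fitted log2 of -0.89 ± 0.10, VDAC2 of -0.70 ± 0.12, TOMM22 of -0.64 ± 0.11, TOMM70 of -0.52 ± 0.09 and VDAC3 of -0.35 ± 0.11, which lost its call without either ER replicate. The median of all genes was -0.68, so VDAC2 and TOMM22 lay within 0.04 of it. With TMM the median was -0.03, calls were 53.5% higher in place of 21.6%, TOMM20 (2.2), TOMM40 (1.35), TOMM7 (0.79) and VDAC3 (0.30) were called higher, and VDAC1 (-0.24) was the only one called lower. Countable positions covered 26.9% of the TOMM20 and 27.6% of the TOMM40 coding sequence, and both genes have 4 named pseudogenes.

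Cytosolic LOV-BirA is the control for labelling without a membrane. There 1 of the 8 genes was called, against 2.04% of 7173 genes called higher and 5.95% lower. TOMM22 stood at 377 and 261 RPKM in the total inputs and at 196 and 141 RPKM in the pulldowns, log2 values of -0.95 and -0.88, with a fitted log2 of -1.15 ± 0.11 (edgeR adjusted p = 1.4e-06). Pulldown and total input of replicate 1 came from different sequencing runs and those of replicate 2 from the same run, and the fall was of like size in both. The other 7 genes had fitted log2 values from -0.24 (VDAC3) to 0.15 (TOMM70). Without cytosol replicate 1 VDAC2 was called higher, and without replicate 2 VDAC3 was called lower.

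Setting the locations against each other tests where ribosomes on these mRNAs were labelled more. OMM minus cytosolic enrichment was higher for TOMM7, at 2.15 ± 0.13 (edgeR adjusted p = 8.7e-10), and for TOMM22, at 1.43 ± 0.17 (edgeR adjusted p = 2.6e-06), 2 of 8 genes against 16.5% of 6482. For TOMM22 the fall in the cytosolic pulldown enters this difference. Among 169 nuclear-encoded mitochondrial genes under 200 aa, 79.9% were called higher in this comparison. TOMM70 was lower at -0.73 ± 0.14, 1 of 8 genes against 39.7%. No beta-barrel was called in this comparison, with values from -0.30 for VDAC2 to 0.25 for VDAC3, but without cytosol replicate 1 VDAC2 was called lower and without replicate 2 VDAC3 higher. With TMM the median of all genes moved from -0.36 to -0.04 and calls were 54.1% higher in place of 29.4%. VDAC3 (0.57) and TOMM20 (0.40) were then called higher, as they were with DESeq2 (0.57 and 0.41), and TOMM40, VDAC1 and VDAC2 lay above 0, at 0.27, 0.12 and 0.02, without a call.

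OMM minus ER enrichment was higher for 4 of 8 genes, against 31% of 6691, and lower for 2, against 18.5%. TOMM7 was higher at 1.98 ± 0.13 and TOMM22 at 0.92 ± 0.17, followed by VDAC1 at 0.67 ± 0.16 and VDAC2 at 0.49 ± 0.19. Among 171 nuclear-encoded mitochondrial genes under 200 aa, 80.1% were called higher. TOMM20 was lower at -1.38 ± 0.14 (edgeR adjusted p = 1.9e-07) and TOMM40 at -0.72 ± 0.15 (edgeR adjusted p = 5.5e-04). Replicate 2 of both locations came from the same sequencing run. There the difference of RPKM ratios was 1.79 for TOMM7, 0.69 for TOMM22, -1.44 for TOMM20 and -1.0 for TOMM40. The RPKM scale shifts log2 ratios of replicate 2 by -0.01 at the OMM and 0.20 at the ER, which lowers these differences relative to the fitted values. With TMM the median of all genes moved from 0.28 to -0.05, calls were 38.5% higher in place of 62.6%, VDAC1 (0.34) and VDAC2 (0.16) were no longer called, and TOMM70 was called lower at -0.39. VDAC2 also lost its call without either OMM replicate or without ER replicate 1.

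The entries that TOMM5 and TOMM6 share with other genes give no value for either alone. Over all exons, the entry holding TOMM6 had log2 values of 0.70 and 0.78 at the OMM, -0.36 and -0.53 at the ER, and -0.36 and -0.56 in the cytosol. The entry holding TOMM5 had 0.16 and 0.38 at the OMM, -0.50 and -0.52 at the ER, and -0.34 and -0.67 in the cytosol. In both entries the OMM replicates lay above those of the other locations.

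RNA-seq of the OMM pulldown asks whether an intact mRNA carried a ribosome labelled at the membrane. In WT cells the 3 tail-anchored genes that could be counted were the highest of the 9. TOMM7 rose from 108 and 106 CPM in the total inputs to 443 and 463 CPM in the pulldowns, with a fitted log2 of 2.08 ± 0.10 (n = 2, edgeR adjusted p = 6.1e-06). TOMM22 rose from 212 and 207 to 435 and 474 CPM, a log2 of 1.11 ± 0.10, and TOMM5 from 22.0 and 22.9 to 46.9 and 48.0 CPM, a log2 of 1.08 ± 0.09. TOMM5 reads that overlap neighbouring genes could not be assigned, so its level is uncertain. Of 254 nuclear-encoded mitochondrial genes under 200 aa, 83.5% were called higher in WT, at a median log2 of 1.17. TOMM22 and TOMM5 lay below that median.

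Among the other classes TOMM40 was called higher at 0.43 ± 0.09, TOMM70 lower at -0.65 ± 0.08 and VDAC1 lower at -0.31 ± 0.10. TOMM20 (-0.18 ± 0.10), VDAC2 (0.16 ± 0.10) and VDAC3 (0.01 ± 0.10) were not called. In all, 4 of 9 genes were called higher, against 20.2% of 13856, and 2 lower, against 45.6%. TOMM20, the most enriched at the ER in footprints, was not called higher as mRNA in the OMM pulldown. These values differ in LOV-BirA location and in readout, and RNA-seq was not done with LOV-BirA at the ER. The median of all genes was -0.28 and, with TMM, 0.01, and calls were then 52.8% higher in place of 30.7%; VDAC1 then stood at -0.01 and was not called, VDAC2 was called higher at 0.45, and TOMM20 stood at 0.12 without a call. DESeq2 called VDAC2 (0.44) and VDAC3 (0.30) higher. VDAC1 also lost its call without either WT replicate, at -0.30 and -0.31, and TOMM40 without WT replicate 2, at 0.39.

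**Figure D3:**
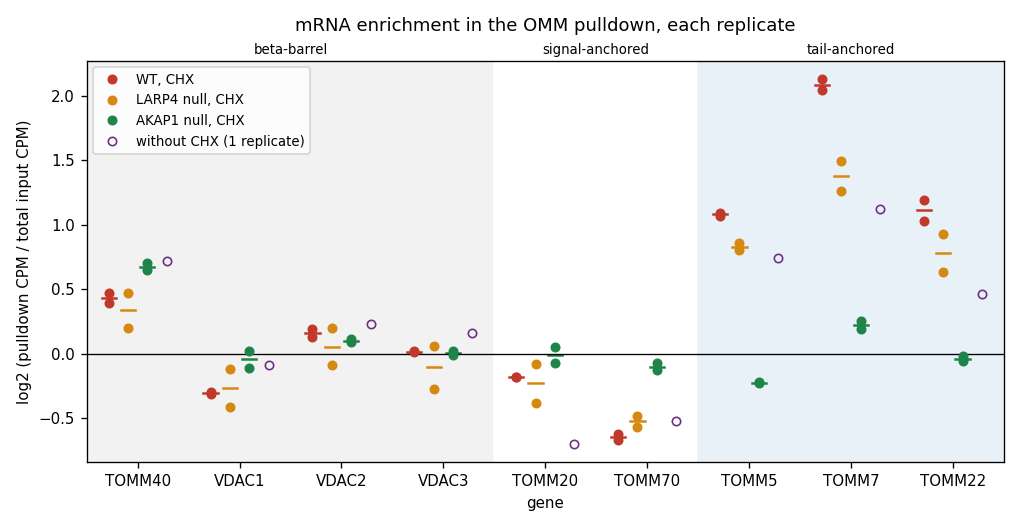
mRNA log2 enrichment (pulldown CPM over total input CPM) of 9 genes in each replicate of WT, LARP4 null and AKAP1 null cells with CHX, and in the replicate without CHX; filled points are replicates, short lines their means and open points the lone replicate. TOMM7 lay at 2.04 and 2.13 in WT, 1.49 and 1.26 in LARP4 null and 0.25 and 0.19 in AKAP1 null cells.

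In AKAP1 null cells the tail-anchored mRNAs lay near 0. TOMM7 had log2 enrichments of 0.25 and 0.19, TOMM5 of -0.22 and -0.23, and TOMM22 of -0.02 and -0.06, and none was called. For each of these genes the AKAP1 null replicates lay below the WT replicates. TOMM40, at 0.67 ± 0.09 (edgeR adjusted p = 0.00122), was the only one of 9 genes called higher, against 13.9% of 13856, and none was called lower, against 28.1%. TOMM5 lay below 0 at an unadjusted p of 0.0281 (edgeR) and no other gene of the 9 did so at an unadjusted p below 0.05, and DESeq2 called 0 lower. With TMM the median of all genes moved from -0.12 to 0.0, calls were 49.2% higher in place of 33.2%, and TOMM7, at 0.35, was called higher.

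The difference between AKAP1 null and WT enrichment was tested directly. It was -1.86 ± 0.13 for TOMM7 (edgeR adjusted p = 2.6e-04), an enrichment ratio 0.275 times that of WT. It was -1.31 ± 0.12 for TOMM5 (edgeR adjusted p = 4.4e-04) and -1.15 ± 0.14 for TOMM22 (edgeR adjusted p = 0.00142). All 3 tail-anchored TOM genes measured were called lower, 3 of 9 genes against 7.96% of 13856. Of 9 other tail-anchored outer membrane genes, 2 were called lower. The same call was made for 65.7% of the 254 nuclear-encoded mitochondrial genes under 200 aa that were tested, and their median difference was -0.87. TOMM20, also under 200 aa, differed by 0.17 ± 0.14 and was not called.

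No beta-barrel was called in this comparison, with differences of 0.24 for TOMM40, 0.26 for VDAC1, -0.06 for VDAC2 and -0.01 for VDAC3. In a fit of only these genotypes TOMM40 and VDAC1 were called higher, at the same values. TOMM70 was higher at 0.54 ± 0.12 (edgeR adjusted p = 0.0197), 1 of 9 genes against 6.52%, but at 0.37 with TMM (edgeR adjusted p = 0.155) and 0.40 with DESeq2 (adjusted p = 0.0854) it was not called, and it lost its call without each of the 4 replicates in turn. With TMM the median of all genes moved from 0.19 to 0.01 and calls were 16.7% higher in place of 45.0%, while TOMM7 (-2.03), TOMM5 (-1.48) and TOMM22 (-1.32) were still called lower. No gene of the 9 was called in the total inputs of AKAP1 null against WT, where edgeR called 0 of 13977 genes, 489 at an unadjusted p below 0.05, and DESeq2 called 15. TOMM7 differed by -0.17 ± 0.13 in total input, TOMM22 by 0.12 ± 0.13 and TOMM5 by 0.03 ± 0.14.

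**Figure D4:**
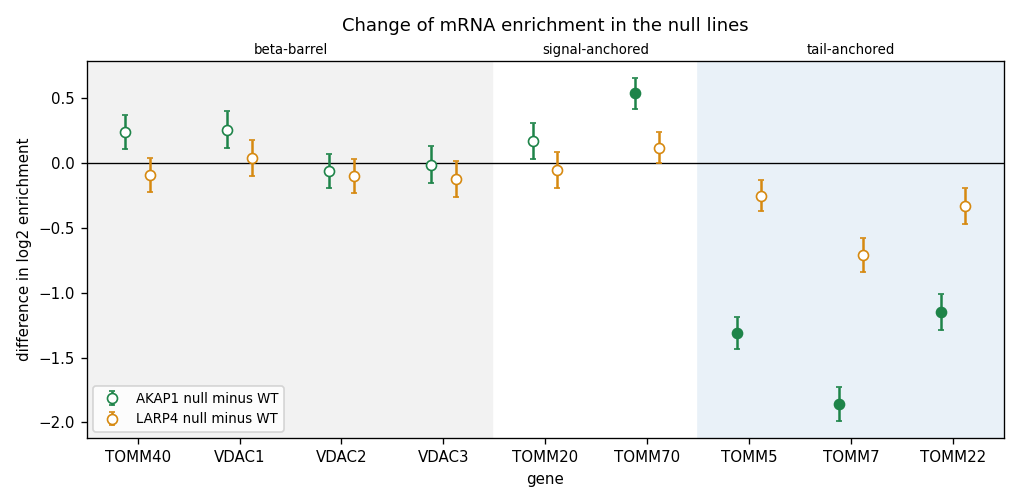
Difference in mRNA log2 enrichment between each null line and WT for 9 genes, as fitted values ± SE from 2 replicates per genotype; filled points have an edgeR adjusted p below 0.05 and open points do not. In AKAP1 null cells TOMM5, TOMM7 and TOMM22 differed from WT by -1.31, -1.86 and -1.15, and no LARP4 null difference was called.

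In LARP4 null cells the same tail-anchored genes remained enriched, with each replicate below both WT replicates. TOMM7 had log2 enrichments of 1.49 and 1.26 (fitted 1.37 ± 0.09), TOMM5 of 0.86 and 0.80 (0.83 ± 0.09) and TOMM22 of 0.93 and 0.63 (0.78 ± 0.10). With TOMM40 (0.34 ± 0.09) 4 of 9 genes were called higher, against 22.8%, and TOMM70 (-0.53 ± 0.08) was called lower, against 30%. Without LARP4 null replicate 1 TOMM40 was not called, and VDAC1, VDAC3 and TOMM20 were called lower as well. The difference from WT was -0.71 ± 0.13 for TOMM7 (edgeR adjusted p = 0.16), and edgeR called 0% of 13856 genes in either direction, with 2270 at an unadjusted p below 0.05. DESeq2 called 456 genes, and TOMM7 among them at -0.91 (adjusted p = 3.0e-05). By edgeR TOMM7 was called without either LARP4 null replicate, and TOMM22 without replicate 1. TOMM5 differed by -0.25 ± 0.12 and TOMM22 by -0.33 ± 0.14. The median difference was 0.17 over all genes (-0.04 with TMM) and -0.41 over 254 nuclear-encoded mitochondrial genes under 200 aa. Relative to the median of all genes, TOMM7 lay at -0.87, TOMM22 at -0.5 and TOMM5 at -0.42.

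The null lines were also set against each other. AKAP1 null minus LARP4 null enrichment was lower for TOMM7 at -1.15 ± 0.13, for TOMM5 at -1.06 ± 0.12 and for TOMM22 at -0.82 ± 0.14 (edgeR adjusted p = 0.0026, 0.00271 and 0.0143), 3 of 9 genes against 2.94% of 13856. None of the 9 was called higher, against 1.72%. Of 254 nuclear-encoded mitochondrial genes under 200 aa, 31.9% were called lower. Without AKAP1 null replicate 2 no gene of the 9 was called lower, at -1.12 for TOMM7, -1.05 for TOMM5 and -0.80 for TOMM22, and without AKAP1 null replicate 1 TOMM22 was not called. Without LARP4 null replicate 1, TOMM40, TOMM70, VDAC1 and TOMM20 were called higher. LARP4 null replicate 2 had lower enrichments than replicate 1 for all 9 genes. Without it TOMM7 (-1.27), TOMM5 (-1.09) and TOMM22 (-0.97) were still called lower, and TOMM70 was called higher at 0.38. In total inputs LARP4 null cells differed from WT by -0.17 ± 0.13 for TOMM7, and 2 of 13977 genes were called (0.00715% in each direction), none of the 9.

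Without CHX, which leaves ribosomes free to run off, values come from 1 replicate with a shorter light pulse, so both differences cannot be told apart and no test was made. TOMM7 had a log2 enrichment of 1.12 (95% exact binomial interval 1.08 to 1.15, counting error only), TOMM5 of 0.74 (0.64 to 0.84) and TOMM22 of 0.46 (0.42 to 0.49). Each lay below both WT replicates with CHX, by 0.97, 0.34 and 0.65 from their mean on the log2 scale. TOMM40 lay at 0.72 (0.68 to 0.76) and TOMM20 at -0.70 (-0.72 to -0.69), against 0.39 to 0.47 and -0.18 in WT. The median difference over 13016 genes was 0.16.

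Other outer membrane proteins and partners of the import machinery place these values. In WT mRNA enrichment 10 of 22 other outer membrane genes were called higher and 6 lower, against 20.2% and 45.6% of all genes, with FIS1 (1.75), a tail-anchored fission factor, MIEF2 (0.95) and CISD1 (0.90) highest and MTX3 (-1.42), SYNJ2BP (-1.14) and MAVS (-1.03) lowest. The 9 tail-anchored genes of that list split into 4 higher and 4 lower, so the class as a whole was not uniform. SYNJ2BP encodes OMP25, whose transmembrane domain is in the LOV-BirA fusion, so reads from the transgene may be counted with it. Of 18 import partners, 15 were called higher and 1 lower, with TIMM10 (1.85), TIMM8B (1.8), both small chaperones of the intermembrane space, and TIMM17B (1.79) highest.

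In AKAP1 null minus WT enrichment, 4 of the 22 outer membrane genes were called lower and 1 higher, against 7.96% and 6.52% of all genes. FIS1 differed by -1.37, MTX1 by -0.66 and CISD1 by -0.61, and USP30 was higher at 0.72. Of the 9 tail-anchored genes among the 22, 2 were called lower and 0 higher, at a median of -0.04. Among import partners 6 of 18 were called lower and 2 higher. TIMM8B differed by -1.79, TIMM10 by -1.58 and TIMM17B by -1.24, whereas HSPA9 (1.40), the matrix chaperone of the import motor, and TIMM44 (1.05), its anchor, were higher. At the ER, 3 of 13 outer membrane genes tested were called higher in footprints and 5 lower, against 19.9% and 72% of all genes. Of the 4 signal-anchored genes among them, MTARC2 (1.75) and USP30 (1.45) were called higher, and CISD1 (0.10) and MIEF1 (0.24), named after their values were seen, were not called. TOMM70, of the same class, was lower, at -0.52.

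The genes with the most similar pattern were sought among 665 nuclear-encoded mitochondrial genes by Euclidean distance over 12 per-replicate log2 enrichments. GUK1, a guanylate kinase (distance 0.62), and MRPL51, a subunit of the mitochondrial ribosome (0.72), were nearest to TOMM7, whose median distance to all genes was 4.19. BAD (0.89) and FAM136A (1.31) were nearest to TOMM22, with a median of 2.95. ATAD1 (0.80) and PLD6 (0.93), both proteins of the outer membrane, were nearest to TOMM20, with a median of 3.66. TMEM70 (0.34) and SND1 (0.70) were nearest to TOMM40, and SLC25A24 (0.42) and HSDL2 (0.62) to TOMM70. HINT3 (0.44) and DNAJC11 (0.50) were nearest to VDAC1, DCAKD (0.42) and SLC25A5 (0.52) to VDAC2, and PMAIP1 and THG1L (0.50 each) to VDAC3. These values share libraries and depth and are given as a description.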

How the data were processed

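For ribosome profiling, rRNA and tRNA reads were discarded (Bowtie) and the remaining reads mapped to GRCh38 (TopHat). From unique footprints of 27 to 36 nt the authors deposited estimated counts per gene (plastid), with non-unique positions masked. The RPKM values that the authors deposited divide by reads on all annotated transcripts. The RNA-seq tables deposited by the authors hold a count per gene (STAR, featureCounts). The deposited values named FPKM were about 10 times those the counts give, were treated as a score and not used. No column of per-sample values was left without a sample.

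Per replicate, enrichment was the log2 ratio of RPKM, or of CPM after adding 0.5 to each count. Rounded counts were fitted with edgeR 4.0.16 (R 4.3.3), the 12 CHX libraries of each assay together. The model had lysate terms that pair pulldown and total input, and a pulldown effect for each location or genotype. The SE is the size of the fitted log2 over the square root of the test's F value. It therefore rests on a spread estimated over all libraries in the fit. Library totals set the scale, and TMM did so in total inputs, compared without a block. Genes needed 64 counts in both total inputs, or a mean of 64 in RNA-seq. P-values are two-sided with Benjamini-Hochberg adjustment over all genes tested, and calls have an adjusted p below 0.05. DESeq2 1.42.0 was an alternative, as were TMM, other minimums, all exons, fits of fewer libraries, no lysate term and leaving out each replicate.

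Pulldown and total input are paired because the study took both from the same lysate, and their deviations between replicates correlated across genes at r = 0.63 to 0.88 in the 6 groups. Replicates differed by more than sampling noise (chi-square per degree of freedom 4.93 in the OMM pulldown to 218 in the LARP4 null pulldown). The labels call the replicates separate samples. The p-values rest on a spread between replicates that is pooled over all locations or genotypes of a fit and moderated across genes. They do not measure the spread of 1 location or genotype alone. Depth limits low genes, and intervals cover counting error only. Among 200 genes simulated with a log2 change of 1, the tests called 92% at the OMM (6742 genes) and 79% in AKAP1 null minus WT (13856 genes). The simulation gave all genes and groups the same spread, had no lysate effects and changed no other gene. These shares check the code and do not give the power in the real data.

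Named genes are all 10 members, the targeted genes, up to 3 called genes per direction with the largest change from the other lists, and the 2 nearest mitochondrial genes of each member. Members and lists were chosen with earlier results of these data known. Coordinates, protein lengths and coding bases are from GENCODE 44.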

Additional observations from a re-analysis of the deposited data

Results flagged for a closer look

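Several genes differed between locations or genotypes by a test of the difference itself (edgeR, adjusted p below 0.05). OMM minus cytosolic footprint enrichment was 2.15 for TOMM7, 1.43 for TOMM22 and -0.73 for TOMM70. OMM minus ER footprint enrichment was 1.98 for TOMM7, 0.92 for TOMM22, 0.67 for VDAC1, 0.49 for VDAC2, -0.72 for TOMM40 and -1.38 for TOMM20. AKAP1 null minus WT mRNA enrichment was -1.86 for TOMM7, -1.31 for TOMM5, -1.15 for TOMM22 and 0.54 for TOMM70. AKAP1 null minus LARP4 null mRNA enrichment was -1.15 for TOMM7, -1.06 for TOMM5 and -0.82 for TOMM22.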

How the results depend on the processing

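Counts below are of the genes described (8 in footprints, 9 in RNA-seq). With TMM, genes called higher numbered 5 at the OMM, 4 at the ER, 4 in OMM minus cytosol, 2 in OMM minus ER, 2 in AKAP1 null and 0 in AKAP1 null minus WT, and those called lower 1 at the ER and 1 in WT. With DESeq2, genes called higher numbered 4 at the OMM, 4 in OMM minus cytosol, 2 in OMM minus ER, 2 in AKAP1 null, 0 in AKAP1 null minus WT and 1 in AKAP1 null minus LARP4 null, and those called lower 0 at the OMM, 0 at the ER, 1 in WT and 1 in LARP4 null minus WT. Among genes called under either setting, signs turned at the OMM for TOMM40 (0.31 with TMM, 0.34 with DESeq2) and over all exons for VDAC3 (-0.29), and at the ER for VDAC3 (0.30 with TMM, 0.26 with DESeq2), TOMM70 (0.13 and 0.09) and TOMM22 (0.00 with TMM). These scalings centre all genes near 0, and library totals do not.

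All exons in place of the coding sequence gave 2 higher and 3 lower at the OMM. Fits of only the libraries compared gave 3 higher and 2 lower at the OMM, 2 higher and 1 lower in AKAP1 null and 3 higher in AKAP1 null minus WT. For these the cause was not tested.

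Without the replicate block that pairs pulldown with total input, genes called lower numbered 0 at the OMM, 2 at the ER, 0 in the cytosol, 0 in OMM minus cytosol, 1 in OMM minus ER, 1 in WT, 0 in LARP4 null and 0 in AKAP1 null minus LARP4 null, and those called higher 1 at the ER, 1 in OMM minus cytosol, 1 in OMM minus ER and 0 in AKAP1 null minus WT. In AKAP1 null minus WT without the block, TOMM7 and TOMM5 were still called lower, and TOMM22 was not, at -1.15 (edgeR adjusted p = 0.0639).

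Leaving out each replicate gave 0 to 1 higher and 1 to 2 lower in the cytosol, 1 to 2 lower in OMM minus cytosol, 1 to 1 lower in WT, 1 to 4 lower in LARP4 null, 0 to 0 higher in AKAP1 null minus WT, 0 to 2 lower in LARP4 null minus WT, and 0 to 4 higher and 0 to 3 lower in AKAP1 null minus LARP4 null; the lone replicate is assumed to vary like the others. Of 982 values of single genes under an alternative, 798 kept both sign and side of the threshold, 52 lost the call, 47 gained one and 85 turned sign. Of those 85, 77 were called under neither setting, among them VDAC1 and VDAC2 at the OMM (0.10 and 0.11 with TMM, 0.13 and 0.14 with DESeq2). Other pseudocounts and minimums changed no count by over 1.5 times. Without replication of clones or of the sample without CHX, spread between lines cannot be given, and masking leaves few countable positions for TOMM40, TOMM20 and the VDACs.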
